A study of Mus musculus with 6 samples.

Results

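The expression of 8 genes of intracellular cholesterol transport and esterification was described in mouse liver. They were Stard4, Stard3, Npc1, Npc2, Soat1, Soat2, Lipa and Osbp, taken by gene name, and they made up 8 of the 20673 genes listed. All 8 passed the filter on low counts, among 13105 genes tested. The livers came from C57BL/6J mice, a wild-type inbred strain, fed either a regular diet (RD, 3 livers) or a high-cholesterol diet (HCD, 3 livers) for 3 days. Each liver gave 1 RNA-seq library, and livers are named here by diet and replicate number. The HCD also carried added fat and sodium cholate, a bile salt, so that cholesterol, fat and cholate cannot be told apart in any difference between the diets. In the annotation used here (GRCm38), Stard4 and Npc1 lie on chromosome 18, Lipa and Osbp on chromosome 19, Soat1 on chromosome 1, Stard3 on chromosome 11, Npc2 on chromosome 12 and Soat2 on chromosome 15, and all are protein-coding. The labels name no other treatment. Mice of both sexes were used in the study, and the labels give neither the age nor the sex of a mouse.

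Cholesterol that enters a liver cell inside lipoproteins is released in late endosomes and lysosomes, where an acid lipase splits cholesteryl esters and a soluble and a membrane protein pass the free sterol out in turn. Carrier proteins then move sterol between membranes, often at contact sites with the endoplasmic reticulum. There, acyltransferases store the excess as esters, and the same membrane holds the sensors that stop the sterol-regulated transcription factor SREBP2 when cholesterol is plentiful.

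A single one of these genes differed between the diets past the threshold. Stard4, a soluble carrier that shuttles cholesterol between the plasma membrane, endosomes and the endoplasmic reticulum, was 3.33-fold lower in HCD livers and passed the test. Osbp, which carries cholesterol from the endoplasmic reticulum to the Golgi in exchange for a phosphoinositide, was 1.81-fold lower without passing it (adjusted p = 0.0544, from edgeR's quasi-likelihood test, with a Benjamini-Hochberg correction across the whole table). The other 6 genes did not pass, with log2 fold changes (HCD over RD) from -0.03 for Npc1 to 0.53 for Soat1. Of all genes tested, 3.27% passed at an adjusted p under 0.05, with 1.32% of all genes lower and 1.95% higher in HCD livers. The median log2 fold change was 0.17 over the 8 genes and 0.007 over all genes tested.

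The 6 libraries held between 13771630 and 23129576 counts. Levels are given in CPM (counts scaled to a common library size with TMM factors). On library totals without those factors, a count of 3 corresponded to between 0.13 and 0.218 CPM, which covers counting error only. The 7 hepatocyte markers listed summed to between 91191 and 122450 CPM in RD livers and between 97822 and 137540 in HCD livers, with Alb the highest in FPKM in every liver. HCD replicate 1 stood apart in its sex-linked genes: it held 5032 counts of Xist, against 0 in the other 5 livers, and no count of 4 Y-linked genes that were above 0 in all the others. Those counts are the pattern of a female liver, and the counts of the other 5 that of male livers. Sex was thus not balanced between the diets, and the 2 cannot be fully told apart. For those of the 8 genes where HCD replicate 1 was the highest or lowest of the 6 livers, the log2 fold change without it is given as well. The labels do not say that the livers of a diet came from separate cages or litters, so p-values measure the spread between these livers. In whole liver, fewer cells of a type and less RNA per cell cannot be told apart.

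Stard4 (ENSMUSG00000024378) is also known as a target of SREBP2. Its level was 135, 110.2 and 119 CPM in RD replicates 1, 2 and 3, and 37.2, 40.4 and 31.7 CPM in HCD replicates 1, 2 and 3. Every HCD liver lay far below every RD liver, and the highest HCD value was well under the lowest RD value. The mean fell from 121 ± 12.7 to 36.4 ± 4.4 CPM (SD, n = 3 each), a log2 fold change of -1.74 (SE 0.146, 95% interval -2.07 to -1.40). The adjusted p was 0.00226 by edgeR's quasi-likelihood test, and by its unadjusted p Stard4 stood at rank 7 of all genes tested. The counts behind these values ran from 1580 to 2814 in RD and from 391 to 736 in HCD livers, so that depth was not the limit. Leaving out any of the livers kept the log2 fold change between -1.82 and -1.65, past the threshold each time.

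**Figure D1:**
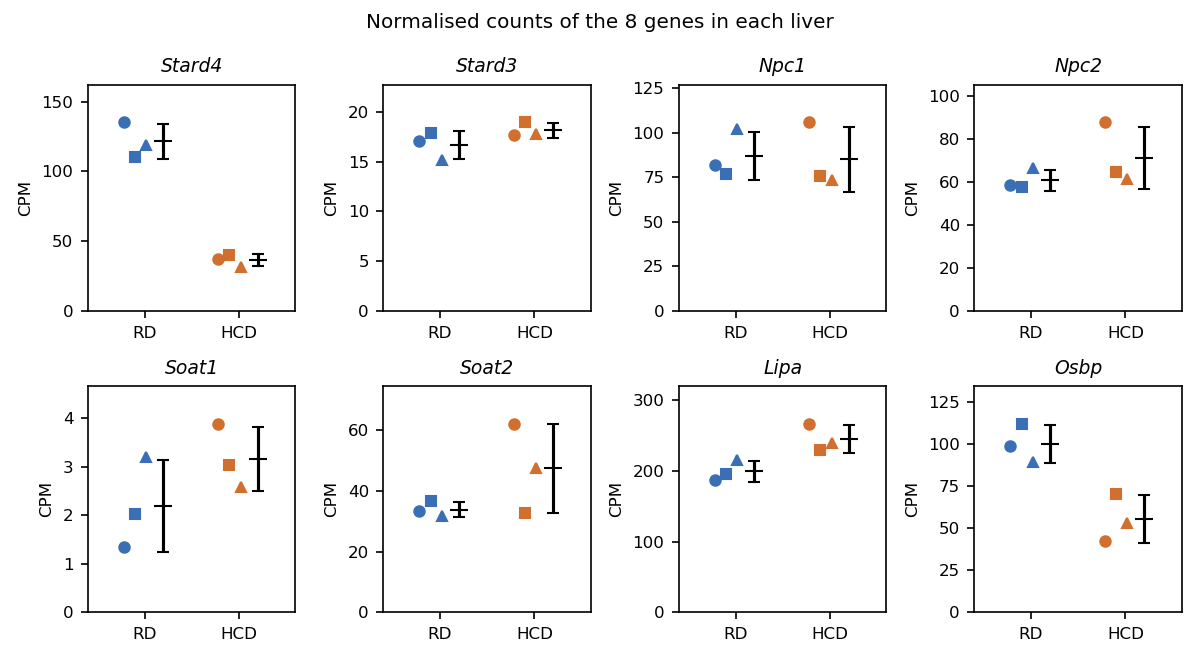
Level of each of the 8 genes in every liver in CPM, in a panel per gene whose vertical axis starts at 0, with RD livers in blue, HCD livers in orange, circles, squares and triangles for replicates 1, 2 and 3, and black bars for mean ± SD. The HCD livers lie below all RD livers for Stard4 (31.7 to 40.4 against 110.2 to 135) and for Osbp, above them for Lipa, and overlap them for the other 5 genes.

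Among genes averaging 5 CPM or more, those whose log2 deviations over the 6 livers lay nearest to those of Stard4 included Lss, the cyclase that makes lanosterol, and Mvk, mevalonate kinase, both of cholesterol synthesis. The root mean square difference from Stard4 was 0.141 for Lss and 0.18 for Mvk, in log2 units over 6 livers. Their log2 fold changes were -1.84 and -1.85, beside -1.74 for Stard4, and both passed (adjusted p = 0.00129 and 0.0112, edgeR). Mvk did not pass when RD replicate 1 was left out (adjusted p = 0.0505, edgeR). All 10 genes of a list of SREBP2 targets fell, with a median of -2.01. Fdps held 53 to 182 counts in RD livers and 3 or 4 in HCD livers. Among the others, Sqle stood at -4.33, Idi1 at -3.69, Cyp51 at -2.84, Insig1 at -1.20 and Hmgcs1 at -1.09. The fold change of Stard4 lay between those of Cyp51 and Insig1. Without RD replicate 1, or without RD replicate 2, 6 of the 10 targets passed. With a liver left out, Insig1 passed in 0 of the 6 fits (adjusted p from 0.0508 to 0.116, edgeR), Hmgcs1 only without HCD replicate 1 (up to 0.133), and Fdps not without RD replicate 1, RD replicate 2 or HCD replicate 3 (up to 0.0589).

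Osbp (ENSMUSG00000024687) was next in size of change. Its level was 99.4, 112 and 89.3 CPM in the RD livers and 42.4, 70.7 and 53.1 CPM in the HCD livers. The groups did not overlap, and the HCD livers were spread more widely than the RD livers, with HCD replicate 1 lowest and HCD replicate 2 nearest to RD. The mean was 100.3 ± 11.5 CPM in RD and 55.4 ± 14.3 CPM in HCD livers, a log2 fold change of -0.86 (SE 0.195, 95% interval -1.30 to -0.41). The interval excluded 0 for this gene taken alone (unadjusted p = 0.00199, edgeR), while the p adjusted over all genes was 0.0544. Its log2 fold change was -0.70 when HCD replicate 1 was left out (adjusted p = 0.0825, edgeR), and -1.07 when HCD replicate 2 was, which passed (adjusted p = 0.033, edgeR). DESeq2, which called 7.2% of the genes it tested, called Osbp lower as well (adjusted p = 0.00149), as did 2 other settings.

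**Figure D2:**
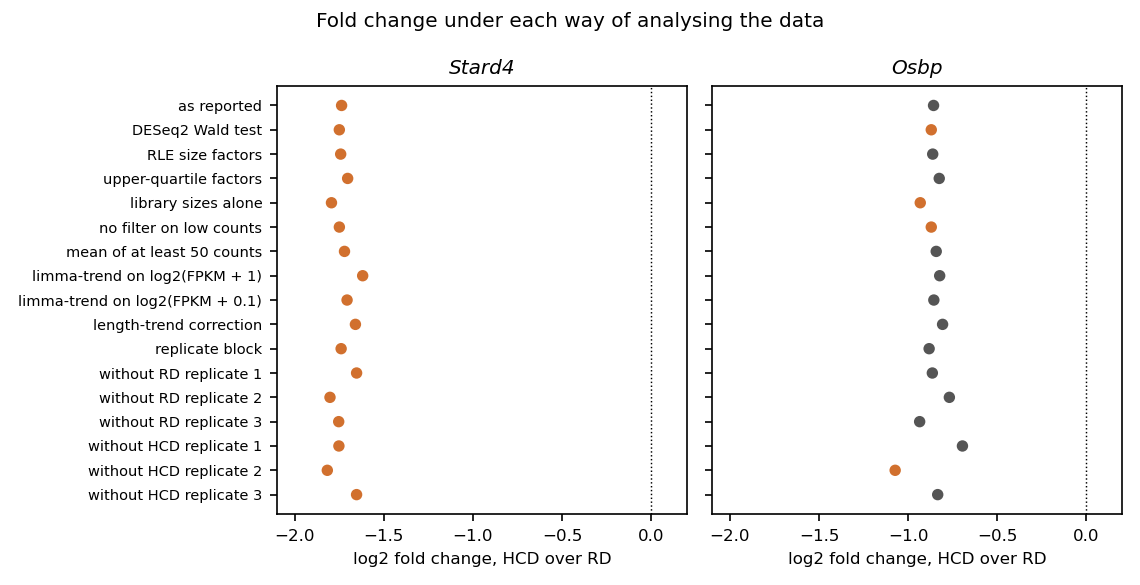
Log2 fold change of Stard4 and Osbp, HCD over RD, under each analysis setting, with orange points where the adjusted p was under 0.05. Stard4 is orange throughout, between -1.82 and -1.62, and Osbp lies between -1.07 and -0.70 with most points not orange.

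The genes nearest to Osbp over the livers were Uggt1, a folding sensor of the endoplasmic reticulum, Krit1, a protein of endothelial junctions, and Ubfd1. Their root mean square differences from Osbp were 0.071, 0.092 and 0.095 log2 units. None of them passed the test (log2 fold changes -0.74, -0.81 and -0.81; adjusted p = 0.103, 0.0733 and 0.058, edgeR). Stard4 and Osbp themselves lay 0.491 log2 units apart, since Stard4 was much the lower of the pair relative to RD.

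Promoter letters were read beside these levels. RefSeq windows from 250 bases before to 50 bases after the annotated start, in build GRCm38.p6, were matched for 5 of the 8 genes, namely Stard3, Npc2, Soat1, Lipa and Osbp, and not for Stard4, Npc1 and Soat2. The windows of Osbp and Lipa are shown because the groups did not overlap for these genes, and that of Stard3 because it alone held the letters TCACNCCAC, a form of the sterol regulatory element. They lie at chr19:11965594-11965893 on the plus strand for Osbp, at chr19:34527425-34527724 on the minus strand for Lipa and at chr11:98358118-98358417 on the plus strand for Stard3. Capitals mark matches, on either strand, to TCACNCCAC, to CCAAT, to the GC box GGGCGG and to the E-box CACGTG, and overlapping matches share letters.
Osbp: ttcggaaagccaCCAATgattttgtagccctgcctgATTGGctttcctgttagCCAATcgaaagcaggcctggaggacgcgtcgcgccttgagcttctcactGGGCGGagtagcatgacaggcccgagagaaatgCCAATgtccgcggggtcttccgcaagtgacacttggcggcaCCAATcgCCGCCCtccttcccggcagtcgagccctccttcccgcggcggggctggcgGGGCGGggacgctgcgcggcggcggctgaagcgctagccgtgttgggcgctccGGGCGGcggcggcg
Lipa: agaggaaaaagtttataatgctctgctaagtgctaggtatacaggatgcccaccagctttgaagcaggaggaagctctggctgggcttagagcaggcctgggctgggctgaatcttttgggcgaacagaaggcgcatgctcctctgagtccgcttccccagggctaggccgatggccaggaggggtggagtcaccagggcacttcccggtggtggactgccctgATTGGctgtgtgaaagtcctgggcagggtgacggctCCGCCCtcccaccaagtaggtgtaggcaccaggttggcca
Stard3: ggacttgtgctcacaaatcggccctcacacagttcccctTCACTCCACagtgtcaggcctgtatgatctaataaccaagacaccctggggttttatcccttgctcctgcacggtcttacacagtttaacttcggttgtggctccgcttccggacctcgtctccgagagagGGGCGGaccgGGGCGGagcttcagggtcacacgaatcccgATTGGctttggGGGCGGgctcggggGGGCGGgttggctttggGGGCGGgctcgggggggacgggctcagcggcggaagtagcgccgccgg
The Osbp window held 5 CCAAT matches and 4 GC boxes, against 1 CCAAT match and 1 GC box for Lipa. The Stard3 window held 1 match to TCACNCCAC, 1 to CCAAT and 5 GC boxes. Each of the 5 windows held CCAAT and GGGCGG, and none held CACGTG. Of 32851 windows of this length in the RefSeq table, 1.24% held TCACNCCAC, 37.4% CCAAT, 35.7% GGGCGG and 7.15% CACGTG. Among the SREBP2 targets, 5 had a window and 1, that of Hmgcs1, held TCACNCCAC. A match is a description of the letters, and Stard3, which held the rarest of the 4 patterns, had a log2 fold change of 0.12.

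Among the lysosomal genes of the 8, Lipa (ENSMUSG00000024781), the acid lipase that frees cholesterol from endocytosed esters, was the most abundant. It was measured at 187, 196 and 215 CPM in RD livers and 267, 230 and 239 CPM in HCD livers. All HCD livers were above all RD livers, by a small margin between RD replicate 3 and HCD replicate 2. Means were 199 ± 14.5 and 245 ± 19.3 CPM, a log2 fold change of 0.30 (SE 0.136, 95% interval -0.01 to 0.61, adjusted p = 0.255, edgeR). Without HCD replicate 1, the highest liver, it was 0.23. Lipa was thus the third gene of the 8 whose groups did not overlap, with Stard4 and Osbp, in a table where 27.6% of the genes tested had groups that did not overlap.

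Npc2 (ENSMUSG00000021242) encodes the soluble protein that takes cholesterol up inside the lysosome, and Npc1 (ENSMUSG00000024413) the membrane protein that receives it. Npc2 stood at 58.3, 57.3 and 66.4 CPM in RD livers and 87.6, 64.6 and 61.1 CPM in HCD livers. HCD replicate 1 was highest and the other HCD livers lay among the RD values. The log2 fold change of Npc2 was 0.23 (SE 0.162, 95% interval -0.14 to 0.60, adjusted p = 0.455, edgeR), and 0.05 without HCD replicate 1.

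Npc1 was measured at 81.8, 77.2 and 102 CPM in RD livers and 106, 76.0 and 73.4 CPM in HCD livers. Each diet held a high liver and a pair of lower ones, and the ranges overlapped almost entirely. The log2 fold change was -0.03 (SE 0.182, 95% interval -0.45 to 0.38, adjusted p = 0.94, edgeR), an interval that leaves room for HCD levels between 0.733 and 1.30 times those of RD. Its direction turned with the setting, from -0.22 without HCD replicate 1 to 0.10 with a correction for gene length. Exons of Npc1 overlap those of Rmc1 on the opposite strand, where 323 bases are identical, and no source used here says whether counting used strand. Rmc1 itself had a log2 fold change of 0.003 (SE 0.151).

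Stard3 (ENSMUSG00000018167) encodes a sterol carrier held in the late endosome membrane, which also binds the endoplasmic reticulum. It was even between livers, at 17.1, 17.9 and 15.2 CPM in RD and 17.7, 19.0 and 17.8 CPM in HCD. The ranges overlapped, and the log2 fold change was 0.12 (SE 0.145, 95% interval -0.21 to 0.45, adjusted p = 0.684, edgeR). Its relative Stard4 has the same kind of lipid-binding fold, and the ratio of their levels per length showed the difference between them within each liver. In FPKM (fragments scaled by gene length and library size), Stard4 over Stard3 was 5.03, 3.93 and 5.0 in RD livers and 1.34, 1.36 and 1.14 in HCD livers. The ratio was 3.63-fold lower in HCD livers, with no overlap (exact two-sided permutation p = 0.1, 0.15 after Benjamini-Hochberg adjustment over 3 ratios). With 3 livers a group, 0.1 is the smallest p that this test can give.

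**Figure D3:**
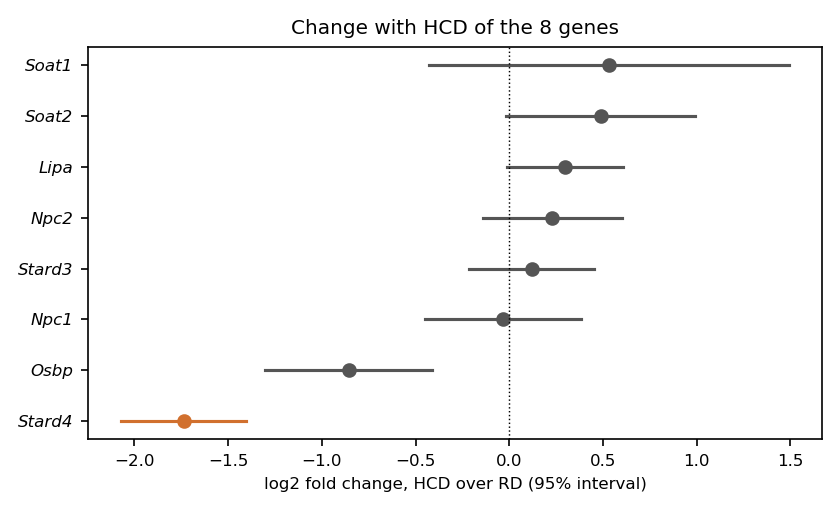
Log2 fold change of the 8 genes, HCD over RD, on the horizontal axis, with 95% intervals from edgeR and the call in orange. The interval of Stard4 (-2.07 to -1.40) stands clear of the others, that of Osbp (-1.30 to -0.41) excludes 0, and the other 6 include it.

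Soat2 (ENSMUSG00000023045) and Soat1 (ENSMUSG00000026600) encode the acyltransferases that esterify cholesterol in the endoplasmic reticulum, Soat2 being the form of hepatocytes and enterocytes and Soat1 that of most other cells, macrophages included. Soat2 was measured at 33.3, 36.5 and 31.5 CPM in RD livers and 62.0, 32.5 and 47.3 CPM in HCD livers. HCD replicates 1 and 3 lay above all RD livers and HCD replicate 2 lay among them. The mean was 33.8 ± 2.52 CPM in RD and 47.3 ± 14.7 CPM in HCD livers, a log2 fold change of 0.49 (SE 0.221, 95% interval -0.02 to 0.99, adjusted p = 0.251, edgeR). Leaving out HCD replicate 1 gave 0.24 and leaving out HCD replicate 2 gave 0.70, and neither passed.

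Soat1 had the fewest reads of the 8 genes, with 28 to 77 counts a liver. Its level was 1.35, 2.02 and 3.21 CPM in RD livers and 3.89, 3.03 and 2.59 CPM in HCD livers. RD livers were widely spread, and HCD replicates 2 and 3 lay within their range. The log2 fold change was 0.53 (SE 0.42, 95% interval -0.43 to 1.49, adjusted p = 0.507, edgeR), with the widest interval of the 8 genes. It was 0.35 without HCD replicate 1 and 0.92 without RD replicate 3. Soat2 over Soat1, in FPKM, was 109, 79.8 and 43.4 in RD livers and 70.4, 47.5 and 80.7 in HCD livers, so that Soat2 was the more abundant form throughout. That ratio overlapped between the diets (exact two-sided permutation p = 0.8).

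The Npc2 to Npc1 ratio was steadier between livers than either gene. It was 1.40, 1.47 and 1.28 in RD livers and 1.63, 1.68 and 1.64 in HCD livers, in FPKM over FPKM. HCD livers lay above RD livers without overlap, with means of 1.38 ± 0.0950 and 1.65 ± 0.0246. The exact two-sided permutation p was 0.1, the smallest possible, and 0.15 after adjustment over the 3 ratios.

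The 8 genes were also ordered by level per length. In RD livers the means were 98.3 ± 8.94 FPKM for Lipa, 32 ± 3.04 for Osbp, 31.8 ± 3.46 for Stard4 and 22.3 ± 1.23 for Soat2. They were followed by Npc2 at 16.3 ± 1.69, Npc1 at 11.9 ± 2.09, Stard3 at 6.86 ± 0.435 and Soat1 at 0.329 ± 0.148 FPKM. Osbp and Stard4 overlapped in their ranges, with Stard4 above Osbp in RD replicates 1 and 3 and below it in RD replicate 2. The other neighbours in this order did not overlap.

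In HCD livers Lipa again led at 123 ± 12 FPKM, followed by Soat2 at 31.9 ± 10.5, Npc2 at 19.4 ± 4.20 and Osbp at 17.9 ± 4.22. Npc1 came next at 11.8 ± 2.69, then Stard4 at 9.67 ± 1.03, Stard3 at 7.56 ± 0.126 and Soat1 at 0.482 ± 0.105 FPKM. From Soat2 down to Stard4, each gene overlapped its neighbour, so that this middle part of the order was not resolved with 3 livers. Stard4 stood in the fifth place in HCD replicate 2 and the sixth in the other HCD livers. Gene lengths implied by FPKM matched the annotation used here within 0.1% for 5 of the 8 genes, and the length behind the Lipa values was 2969 bases against 6780 in that annotation, so the FPKM level of Lipa depends on the gene model.

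**Figure D4:**
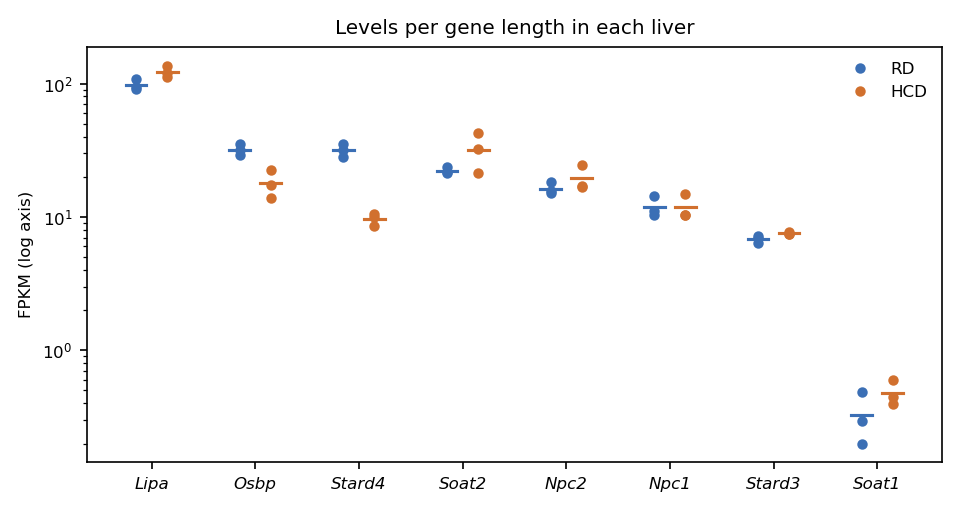
Level per length of the 8 genes in each liver, in FPKM on a log axis, with RD livers in blue and HCD livers in orange. Lipa is highest and Soat1 lowest in all 6 livers, and Stard4 drops from beside Osbp in RD (31.8 and 32) to beside Npc1 in HCD (9.67 and 11.8).

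Of the 8 genes, Npc2 and Lipa had the most similar profile over the livers, 0.116 log2 units apart, and Npc1 and Npc2 were 0.14 apart. Stard4 and Soat1 were the farthest apart, at 1.17. HCD replicate 1 was the highest of the 6 livers for Npc1, Npc2, Soat1, Soat2 and Lipa and the lowest for Osbp. Other genes lay close to these profiles too. The nearest was Narfl to Stard3 (0.038 log2 units), Hmgn1 to Npc1 (0.058), Ebag9 to Npc2 (0.038), Sms to Soat1 (0.096), Jam2 to Soat2 (0.042) and Myl12a to Lipa (0.045).

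Markers of other liver cells were read beside these levels. All 10 genes of a Kupffer cell list had log2 fold changes above 0, with a median of 0.86. Cd68, a lysosomal membrane protein of macrophages, passed the test (4.43 ± 0.646 to 10.5 ± 0.740 CPM, log2 fold change 1.24, adjusted p = 0.0277, edgeR), but in only 1 of the 6 fits with a liver left out, without HCD replicate 2 (adjusted p up to 0.13, edgeR). The list summed to 158, 194 and 258 CPM in RD livers and 473, 418 and 218 CPM in HCD livers, so that HCD replicate 3 lay within the RD range. Macrophages also express Lipa, Npc2 and Soat1, and the part of these cells in the values of those genes was not tested. Lists for other cell types leaned the same way without a gene that passed: log2 fold changes were above 0 for 5 of 5 leukocyte markers (median 0.21), 7 of 8 endothelial markers (0.29), 8 of 8 stellate cell markers (0.32) and 4 of 5 cholangiocyte markers (0.60). The hepatocyte markers were mixed, with 4 of 7 above 0 and 3 below, a median of 0.26 and 0 that passed. The summed leukocyte and endothelial markers were above the RD range in HCD replicate 1 alone (14.2 CPM against 7.16 to 11.1, and 241 CPM against 107 to 194). The stellate sum of HCD replicate 2, 238 CPM, lay within the RD range of 222 to 239.8 CPM, and the cholangiocyte sum was above the RD range in HCD replicate 3 alone (98.1 CPM against 37.4 to 91.9).

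The wider pathway was read from 4 lists that hold 46 genes, of which 42 were tested. A single gene passed, Ces1d, and it was higher, where 3.27% of all genes tested passed. The same share stands beside the counts given below for each list. Taking p before adjustment, 6 were higher and 2 lower at 0.05 or under, where 20.9% of all genes tested met that bound. The median log2 fold change over the 42 was 0.06. Osbp2, Osbpl6, Osbpl10 and Stard6 did not pass the filter, with at most 43 counts in a liver.

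Among the relatives of Osbp and the VAP anchors that hold them on the endoplasmic reticulum, 0 of 10 tested passed and the median was 0.08. Osbpl9, a sterol and lipid carrier of the same family, was at 124 ± 4.63 CPM in RD and 125 ± 9.06 CPM in HCD livers. The 2 with the largest differences were low in counts, Osbpl5 at 1.15 (adjusted p = 0.252, edgeR) and Osbpl7 at 0.73 (adjusted p = 0.494, edgeR). Within this list the lowest log2 fold change was that of Osbpl1a, at -0.21, beside -0.86 for Osbp.

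Among the other sterol carriers, 0 of 7 tested passed, with a median of -0.29. Gramd1b, which binds plasma membrane cholesterol at contact sites, was at 2.64, 0.977 and 1.65 CPM in RD livers and 4.50, 3.58 and 6.00 CPM in HCD livers. The groups did not overlap, and its log2 fold change was 1.40 (SE 0.431, adjusted p = 0.119, edgeR). Gramd1b was low in counts, with 14 to 55 in RD livers and 52 to 89 in HCD livers. Star, the carrier of steroid-making mitochondria, was at -0.52 (adjusted p = 0.525, edgeR). Scp2, a carrier of peroxisomes and cytosol, averaged 3910 CPM in RD and 3199 CPM in HCD livers (log2 fold change -0.29, adjusted p = 0.419, edgeR). HCD replicate 1 was the lowest liver at 2561 CPM, with 3525 and 3510 CPM in HCD replicates 2 and 3.

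Of 12 lysosomal partners of Npc1, Npc2 and Lipa, 0 passed, and the median was 0.06. Their largest differences belonged to the transcription factors of lysosomal genes, Tfe3 at -0.70 (adjusted p = 0.141, edgeR) and Tfeb at 0.66 (adjusted p = 0.196, edgeR). Tmem97, a binding partner of NPC1, was named after its values were seen, because other settings called it. It stood at 87.3, 75.2 and 70.7 CPM in RD livers and 55.1, 44.2 and 51.5 CPM in HCD livers, without overlap. Its log2 fold change was -0.63 (SE 0.141, adjusted p = 0.0522, edgeR), which is close to that of Osbp in size and in p.

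Among 13 genes of ester storage and hydrolysis, 1 passed and the median was 0.14. Ces1d, a carboxylesterase of the endoplasmic reticulum, was at 596, 649 and 473 CPM in RD livers and 1381, 1259 and 854 CPM in HCD livers. All HCD livers were above all RD livers, and HCD replicate 3 was the lowest of them. Its log2 fold change was 1.02 (SE 0.222, adjusted p = 0.0473, edgeR), a call that ended when any liver but HCD replicate 3 was left out (adjusted p from 0.0735 to 0.167, edgeR). Without HCD replicate 1, the highest liver, it was 0.88. Ces1d has near relatives in its gene cluster that could share reads with it. Ces1g, from the same cluster, was at 0.62 (adjusted p = 0.186, edgeR) and Plin5, a lipid droplet coat protein, at 0.42 (adjusted p = 0.361, edgeR).

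**Figure D5:**
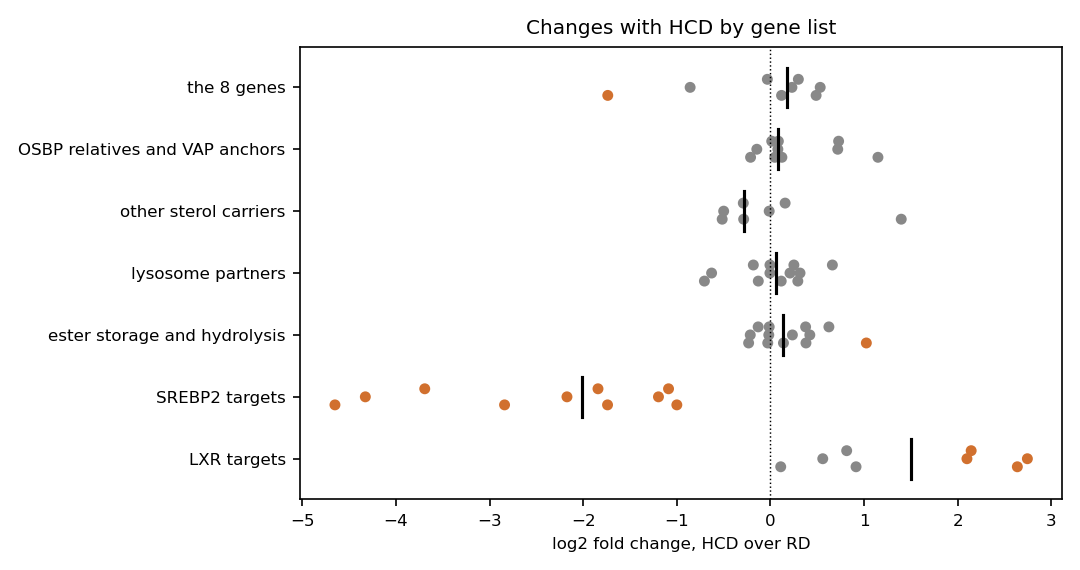
Log2 fold change, HCD over RD, of each gene tested in the 8 genes, the 4 pathway lists and the lists of SREBP2 and LXR targets, with orange points for genes that passed the test and a black tick for the median. The SREBP2 targets all lie below 0, with a median of -2.01, while the 4 pathway lists have medians from -0.29 to 0.14 and a single orange point, Ces1d.

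In a list of 8 targets of LXR, the nuclear receptor that senses oxysterols, all 8 had log2 fold changes above 0, with a median of 1.51. Of these, 4 passed the test. Abcg5 and Abcg8, the sterol exporters into bile, were at 2.74 and 2.64, Srebf1, the gene of the main fatty acid regulator, at 2.14 and Abcg1 at 2.10. Abcg8 and Srebf1 passed with any liver left out, Abcg5 did not pass without RD replicate 1 (adjusted p = 0.0569, edgeR), and Abcg1 did not pass without RD replicate 1, RD replicate 2 or HCD replicate 3 (adjusted p = 0.121, 0.113 and 0.0699, edgeR). None of the 8 genes of transport and esterification rose past the threshold.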

How the data were processed

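Liver RNA from 3 RD-fed and 3 HCD-fed mice was sequenced by Novogene, and all 6 libraries were used. The authors deposited raw read counts per gene and FPKM (fragments scaled by gene length and by mapped fragments) per gene. The submitters' processing notes name STAR, HTSeq, DESeq2, edgeR and the build GRCm39, without versions or roles. The authors' own log2 fold changes, p-values and adjusted p-values stand in the same deposit and were not used. Diets were taken from the sample labels. The 8 genes were found by gene name, and counts were joined by gene identifier.

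Counts were filtered with filterByExpr by diet, scaled by TMM and tested with edgeR 4.0.16 (glmQLFit and glmQLFTest, two-sided) in R 4.3.3, with p-values corrected by Benjamini-Hochberg across 13105 tested genes and a call at adjusted p under 0.05. CPM values use the TMM-scaled library sizes. Levels of the 8 genes were compared with each other in FPKM, and ratios of FPKM were tested by exact permutation over livers. Alternatives used DESeq2 1.42.0, limma 3.58.1 (log2 of FPKM plus 1 or plus 0.1), other scalings and filters, a length-trend correction, a replicate block and each liver left out. The test script was checked on simulated counts. Library totals ran from 13771630 to 23129576 counts. Counts of any 2 livers of a diet differed beyond sampling noise (chi-square per degree of freedom of at least 27.7), so none was a repeat deposit.

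Named genes were the 8 members; each called gene of the pathway, SREBP2 and LXR lists; the 2 genes of each pathway list with the largest absolute log2 fold change among those not called; and the nearest genes by root mean square log2 difference over the 6 livers (3 per member computed, for 6 of them the first is given). Some genes that this rule names are not reported here. The members and lists were chosen with earlier results of these data known. Promoter sequences came from RefSeq (GRCm38.p6) and gene models from a GRCm38 annotation. Copies were searched with minimap2 2.31, and figures were drawn with matplotlib 3.10.9.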

Additional observations from a re-analysis of the deposited data

How the results depend on the processing

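Stard4 was called lower under all 16 alternatives, with log2 fold changes from -1.82 to -1.62 and adjusted p of at most 0.0135 (edgeR, DESeq2 or limma). The number of the 8 genes called was 1, and became 2, by the addition of Osbp, with DESeq2, with library sizes alone, without a filter on low counts, at an unadjusted p of 0.05, and in the leave-one-out fits (range 1 to 2) without HCD replicate 2. Of all genes tested, 20.9% met the unadjusted bound (edgeR) and 7.2% were called by DESeq2. Over all genes 428 were called. DESeq2 called 995, no filter 649, the length-trend correction 255 and the replicate block 136, and leaving out a liver gave 39 (without RD replicate 1) to 387. With library sizes alone, 158 of 319 calls were higher, against 255 of 428. Of the pathway genes 1 was called; the number was 2 with DESeq2 and without a filter (Tmem97 added), 0 with library sizes alone, both limma fits and the replicate block, and 0 to 1 with a liver left out. With the length-trend correction it was 1, Tmem97 in place of Ces1d. Npc1 turned to a log2 fold change above 0 with upper-quartile factors (0.0028), the length-trend correction (0.10) and without RD replicate 3 (0.0986), HCD replicate 2 (0.043) or HCD replicate 3 (0.0582), never past the threshold; its range with a liver left out was -0.22 to 0.0986. The log2 Soat2 to Soat1 ratio, -0.16, became 0.29 with log2(FPKM + 1), and ranged from -0.53 to 0.14 with a liver left out. With a liver left out, the log2 difference ranged from 0.20 to 0.30 for Npc2 to Npc1 and from -1.98 to -1.78 for Stard4 to Stard3; with log2(FPKM + 1) it was 0.24 and -1.74.

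The SREBP2 targets called were 6 of 10 without RD replicate 1 or RD replicate 2 and 8 with the replicate block, and the LXR targets called were 2 without RD replicate 1 and 3 with the block. The replicate numbers did not pair the livers (correlations of deviations -0.076, 0.088 and -0.041), so the block is given here only; under it Stard4 kept its call (adjusted p = 0.0129, edgeR) and Osbp had an adjusted p of 0.0629 (edgeR). Soat1 was not tested with a mean of at least 50 counts. With 3 livers a diet, p-values rest on a small number of samples. Why the counts move between settings was not tested.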

Other observations

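Lcat, which esterifies cholesterol in plasma lipoproteins, had tight groups that did not overlap: 424, 422 and 439 CPM in RD livers and 547, 579 and 542 CPM in HCD livers. Its log2 fold change was 0.38 (SE 0.134, adjusted p = 0.163, edgeR). Ctsd, a lysosomal protease, was at 164, 162 and 190 CPM in RD livers and 207, 220 and 217 CPM in HCD livers (log2 fold change 0.32, adjusted p = 0.217, edgeR). Stard3nl, the shorter relative of Stard3 in late endosomes, stood at 10.1, 11.3 and 12.1 CPM in RD livers and 5.26, 8.96 and 9.65 CPM in HCD livers, where Stard3 itself was even. Its log2 fold change was -0.50 (SE 0.256, adjusted p = 0.306, edgeR). All 3 genes were picked after their values were seen, and none passed the test.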
